A study of Homo sapiens with 2 samples.

Results

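The subject is the set of E2F1 binding sites called inside the gene clusters that encode the replication-dependent histones. E2F1 was mapped by chromatin immunoprecipitation followed by sequencing in LNCaP-abl, a prostate cancer line derived from LNCaP that grows without androgen. The cells, at passages 61 to 64, had spent 3 days in androgen-depleted medium with charcoal-stripped serum when they were collected. The series has 2 samples, a precipitate obtained with 2 E2F1 antibodies and an input made without antibody. Only the peak list of the precipitate was used, so no value has a replicate, and the input's signal over these clusters was not analysed here. Read depth is unknown because the list gives positions and scores and no read counts.

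Members were chosen by position alone, as the peaks whose midpoint falls in 1 of 5 intervals of the genome build hg19, and 47 of the 28734 peaks qualified. Of these, 40 lay in 3 intervals of the HIST1 cluster on chromosome 6. The proximal interval (26015000 to 26290000) held 24, the middle one (27090000 to 27120000) 4 and the distal one (27770000 to 27870000) 12. The HIST2 interval on chromosome 1 (149780000 to 149860000) held 5 and the HIST3 interval (228610000 to 228650000) held 2. No measured value entered this rule, but the choice was made with earlier results of these data known. The remaining 1607 peaks of chromosome 6 and 2955 peaks of chromosome 1 served for comparison. All peak coordinates are hg19 and 1-based.

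The histones H2A, H2B, H3 and H4 form the core of the nucleosome, and H1 binds the DNA that links nucleosomes. Their replication-dependent genes are short, mostly lack introns, and are transcribed in S phase so that new DNA can be packed as it is made. They sit in clusters where H2A and H2B genes often face away from each other across a shared promoter. E2F factors control many other genes of S phase entry, such as those for DNA synthesis enzymes and cyclins, and CCAAT and TATA boxes are common in histone promoters, with an octamer sequence typical of H2B. In the RefSeq gene table of GRCh38.p14, 69 protein-coding histone genes carry these cluster names. HIST1 has 55 of them: 6 for H1, 12 for H2A, 15 for H2B, 10 for H3 and 12 for H4. HIST2 has 11 and HIST3 has 3. Between the first and the last HIST1 gene the same table lists 98 tRNA genes, which RNA polymerase III transcribes. Gene positions of that build were not set against peaks of hg19, so which gene a peak lies in or next to, histone or tRNA, was not analysed here.

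Sequence under the peaks could not be read without a genome of hg19, so promoters of the cluster genes are shown instead, from the RefSeq promoter table (GRCh38.p14). They show the letters around the starts of these genes and say nothing of whether a peak lies on them. Of the 69 genes, 64 had a window of 250 bases before to 50 after the start. An E2F site was searched as TTTCCCGC, TTTGGCGC, TTTCGCGC or TTTGCCGC on both strands, and 16 of the 64 genes (25%) had at least 1 match, against 3.99% of all 27305 genes in the table. Matches were found for 5 of 16 H2A genes, 6 of 18 H2B genes, 4 of 12 H4 genes, 1 of 12 H3 genes and 0 of 6 H1 genes. By cluster they were found for 15 of 50 HIST1 genes, 1 of 11 HIST2 genes and 0 of 3 HIST3 genes. Divergent H2A and H2B windows overlap in 11 gene pairs, so the 16 genes share 12 distinct positions. A match is a description of the letters, not a binding site.

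The matches are shown with up to 10 bases on either side, the match in capitals, read 5′ to 3′ on the strand of the gene (coordinates GRCh38.p14). In each of the 5 H2A genes the letters TTTCGCGC end 42 bases before the annotated start. H2AC14 has the same 28 letters as H2AC13.
H2AC11 (chr6:27132983-27133010, plus strand): acgtcttcttTTTCGCGCccaatagtgt
H2AC13 (chr6:27808113-27808140, plus strand): acagcttcctTTTCGCGCccagtagagg
H2AC16 (chr6:27865257-27865284, plus strand): acagctttatTTTCGCGCccagtattga
H2AC17 (chr6:27893218-27893245, minus strand): ccagcttcttTTTCGCGCccagcagctg
H2BC12 (chr6:27147047-27147074, minus strand): acactattggGCGCGAAAaagaagatat
In 3 H4 genes the match lies 34 to 41 bases after the start of the transcript and just past an ATG. There it is transcribed sequence and not sequence upstream of the gene, although these 3 are counted in the shares above. In H4C7 it lies 86 bases before the start. H3C7 has the only match among H3 genes, 67 bases before the start. H2BC18 has the only one in HIST2, 35 bases after the start, and it too is counted above.
H4C2 (chr6:26027234-26027252, minus strand): atgtctggtcGCGGCAAAg
H4C9 (chr6:27139309-27139331, plus strand): atgtcaggacGCGGCAAAggagg
H4C13 (chr6:27873485-27873510, minus strand): atgtctgggcGCGGCAAAggcgggaa
H4C7 (chr6:26247073-26247100, minus strand): ctgaatacgtTTTCCCGCctttcctggt
H3C7 (chr6:26250693-26250720, minus strand): ataattcaggGCGCGAAActggaagatt
H2BC18 (chr1:149812321-149812345, minus strand): ttttctctttTTTCGCGCaaaaatg

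Upstream sequence is shown for 1 gene of each histone family, the earliest along the HIST1 cluster with a sequence, and for a HIST3 gene, leaving out testis forms (H2AC1, H2BC1 and H3-4). Each run is the 250 bases before the start in GRCh38.p14. Capitals mark, on either strand, an E2F match, the CCAAT box, the TATAAA box or the octamer ATTTGCAT.
H1-1 (chr6:26017788-26018037, minus strand): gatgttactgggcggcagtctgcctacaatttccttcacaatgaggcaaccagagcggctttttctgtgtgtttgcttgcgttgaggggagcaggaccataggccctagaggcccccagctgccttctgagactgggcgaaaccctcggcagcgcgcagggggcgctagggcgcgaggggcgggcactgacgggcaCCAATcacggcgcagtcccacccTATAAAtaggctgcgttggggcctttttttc
H2AC4 (chr6:26033619-26033868, minus strand): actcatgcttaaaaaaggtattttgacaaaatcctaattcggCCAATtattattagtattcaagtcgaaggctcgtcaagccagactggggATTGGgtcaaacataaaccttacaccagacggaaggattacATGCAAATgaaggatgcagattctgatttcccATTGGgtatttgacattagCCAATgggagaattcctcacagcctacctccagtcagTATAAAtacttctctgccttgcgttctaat
H2BC3 (chr6:26043714-26043963, minus strand): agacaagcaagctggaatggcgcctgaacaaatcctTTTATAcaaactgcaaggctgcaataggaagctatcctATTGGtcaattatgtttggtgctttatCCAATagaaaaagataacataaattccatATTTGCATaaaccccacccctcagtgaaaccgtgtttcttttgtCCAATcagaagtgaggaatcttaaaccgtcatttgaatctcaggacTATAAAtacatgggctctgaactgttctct
H3C1 (chr6:26020201-26020450, plus strand): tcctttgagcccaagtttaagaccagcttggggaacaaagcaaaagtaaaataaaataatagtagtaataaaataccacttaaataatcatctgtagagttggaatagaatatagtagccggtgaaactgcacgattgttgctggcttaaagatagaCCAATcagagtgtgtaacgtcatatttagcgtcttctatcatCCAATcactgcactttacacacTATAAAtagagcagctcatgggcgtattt
H4C2 (chr6:26027284-26027533, minus strand): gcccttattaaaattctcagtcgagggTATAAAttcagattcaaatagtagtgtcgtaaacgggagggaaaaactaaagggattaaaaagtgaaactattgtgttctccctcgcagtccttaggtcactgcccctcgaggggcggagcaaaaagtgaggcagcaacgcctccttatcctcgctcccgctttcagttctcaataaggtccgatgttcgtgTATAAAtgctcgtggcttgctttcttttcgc
H2AC25 (chr1:228457874-228458123, minus strand): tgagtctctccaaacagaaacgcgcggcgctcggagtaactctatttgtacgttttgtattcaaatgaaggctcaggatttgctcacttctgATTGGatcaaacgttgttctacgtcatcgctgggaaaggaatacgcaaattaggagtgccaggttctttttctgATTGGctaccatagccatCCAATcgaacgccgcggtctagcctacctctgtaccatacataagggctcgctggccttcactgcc
The H2AC4 and H2BC3 runs carry CCAAT boxes, a TATA box and the octamer, while H4C2 has TATA boxes and no CCAAT. Over the 300-base windows, CCAAT was present for 55 of 64 histone genes (85.9%) against 39.7% of all genes, and for all 52 H1, H2A, H2B and H3 genes but 3 of 12 H4 genes. TATAAA was present for 43 (67.2%, against 14.0% of all genes). The octamer was present for 26 (40.6%, against 2.19%). These were 14 of 18 H2B genes, 11 of 16 H2A genes and 1 H3 gene, H3C4, one of whose windows is that of H2AC7. Motifs were sought on both strands, so in the 11 overlapping H2A and H2B pairs the same letters can count for both genes.

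E2F1 peaks were dense across the HIST1 cluster. The 3 intervals together held 40 peaks in 405 kb, or 98.8 peaks per Mb (exact 95% Poisson interval 70.6 to 134), against 9.44 (8.98 to 9.91) on the rest of chromosome 6, a ratio of 10.5. The proximal interval had 87.3 per Mb (55.9 to 130), the distal 120 (62.0 to 210) and the middle, with 4 peaks, 133 (36.3 to 341). These 3 intervals overlap widely, so they do not order the densities. Peaks covered 5.37% of the bases of the HIST1 intervals and 0.468% of the rest of chromosome 6. The surroundings were themselves dense. Within 1 Mb of the HIST1 intervals there were 113 peaks, or 32.8 per Mb (27.0 to 39.4), and HIST1 exceeded this by 3.02 times. The intervals cover counting error only, and neighbouring peaks are not independent. Part of the density came from close pairs. With peaks within 1 kb of each other counted as 1 site, HIST1 held 24 sites and the ratio to the rest of chromosome 6 was 6.94.

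**Figure D1:**
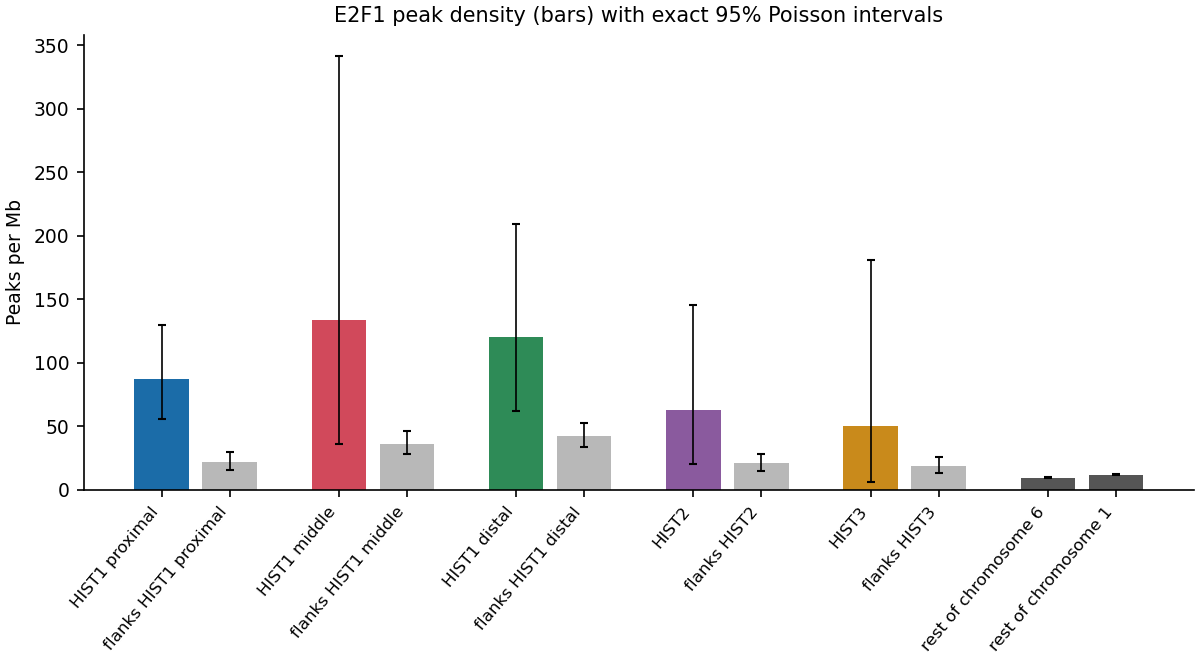
Bars give E2F1 peaks per Mb (vertical axis) in each histone gene interval (coloured), in the 1 Mb on either side of it (light grey) and on the rest of chromosomes 6 and 1 (dark grey), and lines give exact 95% Poisson intervals. The HIST1 bars stand at 87.3, 133 and 120, above flanks of 21.8 to 42.6 and 9.44 on the rest of chromosome 6. The HIST3 bar rests on 2 peaks. The flank bar of the middle interval, 36.3, is too low, because its length includes part of the proximal interval, whose peaks were left out. The Poisson interval of the middle interval, with 4 peaks, starts at 36.3, so its density is not set apart from that of its flanks.

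Stretches of the same length seldom held as many peaks. Of 616 windows of 275 kb that tile the rest of chromosome 6, 0 (0%) held at least the 24 peaks of the proximal interval, and the fullest held 21. When windows were allowed to start at any peak, the fullest held 23, from 31620589. For the distal interval, 0 of 1699 windows of 100 kb (0%) reached 12 peaks, with a maximum of 10, but 1 window started at a peak, from 28555132, also held 12. For the middle interval, 18 of 5671 windows of 30 kb (0.317%) reached 4 peaks. Among tiled windows that held a peak the share was 1.51%, and among windows started at a peak it was 5.30%. The fullest 30 kb window held 7 peaks, from 26312856, which is 22.9 kb past the end of the proximal interval, and the fullest tiled window of 100 kb, from 27430186, lay between the middle and the distal intervals. These are counts of windows in 1 library and no test. The ends of the intervals were set with the position of the genes in view, while the windows were not.

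**Figure D2:**
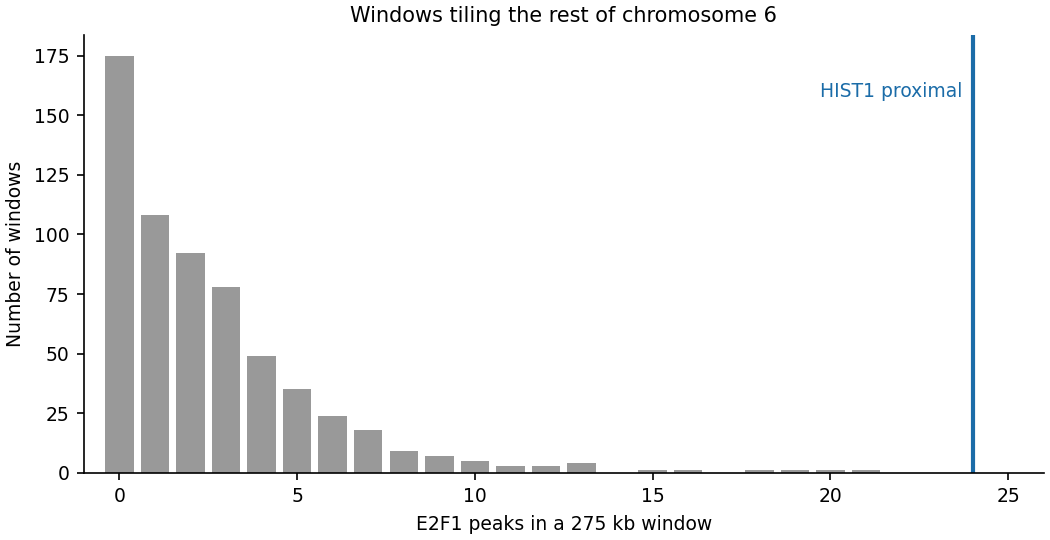
Grey bars count the 275 kb windows that tile chromosome 6 outside the histone gene intervals (vertical axis) by the number of E2F1 peaks they hold (horizontal axis). The blue line marks the 24 peaks of the HIST1 proximal interval, to the right of the fullest tiled window, which held 21.

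The chromosome 1 clusters held few peaks. HIST2 had 62.5 peaks per Mb (20.3 to 146) and HIST3 50 (6.06 to 181), against 11.9 (11.5 to 12.3) on the rest of chromosome 1. The Poisson interval of HIST3 includes the value of the rest. For HIST2 the ratio of 5.25 (1.71 to 12.3) was 3.48 (0.72 to 10.2) with peaks within 1 kb merged and 2.04 (0.05 to 11.4) in the top 50% by score, where 1 peak was left, so both of these intervals include 1. At least 5 peaks, as in HIST2, were found in 82 of 3102 windows of 80 kb (2.64%), and at least 2, as in HIST3, in 662 of 6207 windows of 40 kb (10.7%). Among tiled windows that held a peak the shares were 5.56% and 34.1%, and among windows started at a peak 15.2% and 54.3%. Within 1 Mb of HIST2 the density was 21.0 (15.1 to 28.4) and within 1 Mb of HIST3 it was 18.5 (13.0 to 25.5), both inside the Poisson interval of the cluster they flank.

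HIST1 held many of the strongest peaks of its chromosome. The score is the authors' value for each peak, taken here as higher for stronger peaks, and it ranks peaks within this list only. The HIST1 median was 55.9, with quartiles of 15.4 and 157, against 20.2 (9.49 and 53.7) on the rest of chromosome 6 and 15.7 (9.87 and 31.9) in the 1 Mb flanks. By interval, the medians were 35.5 in the proximal, 174 in the middle and 126 in the distal one. Over the median of the rest these were ratios of 1.75 (95% interval of the median 0.71 to 5.57), 8.62 and 6.24 (0.60 to 10.7), so the ranges for the proximal and the distal one include 1. A score of at least 110, which marks the top 10% of the list, was reached by 17 of the 40 (42.5%, exact Clopper-Pearson interval 27.0 to 59.1%). On the rest of chromosome 6 it was reached by 142 of 1607 peaks (8.84%), and in the flanks by 4 of 113 (3.54%). HIST1 peaks were 40 of the 1647 peaks of chromosome 6 (2.43%) and 13 of its 100 highest. Weak peaks were present too, since 12 of the 40 (30%) scored below 20, against 49.7% on the rest of the chromosome. No test was made, because the peaks come from 1 library and neighbours are not independent. How far the score follows local background or DNA copy number was not tested.

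**Figure D3:**
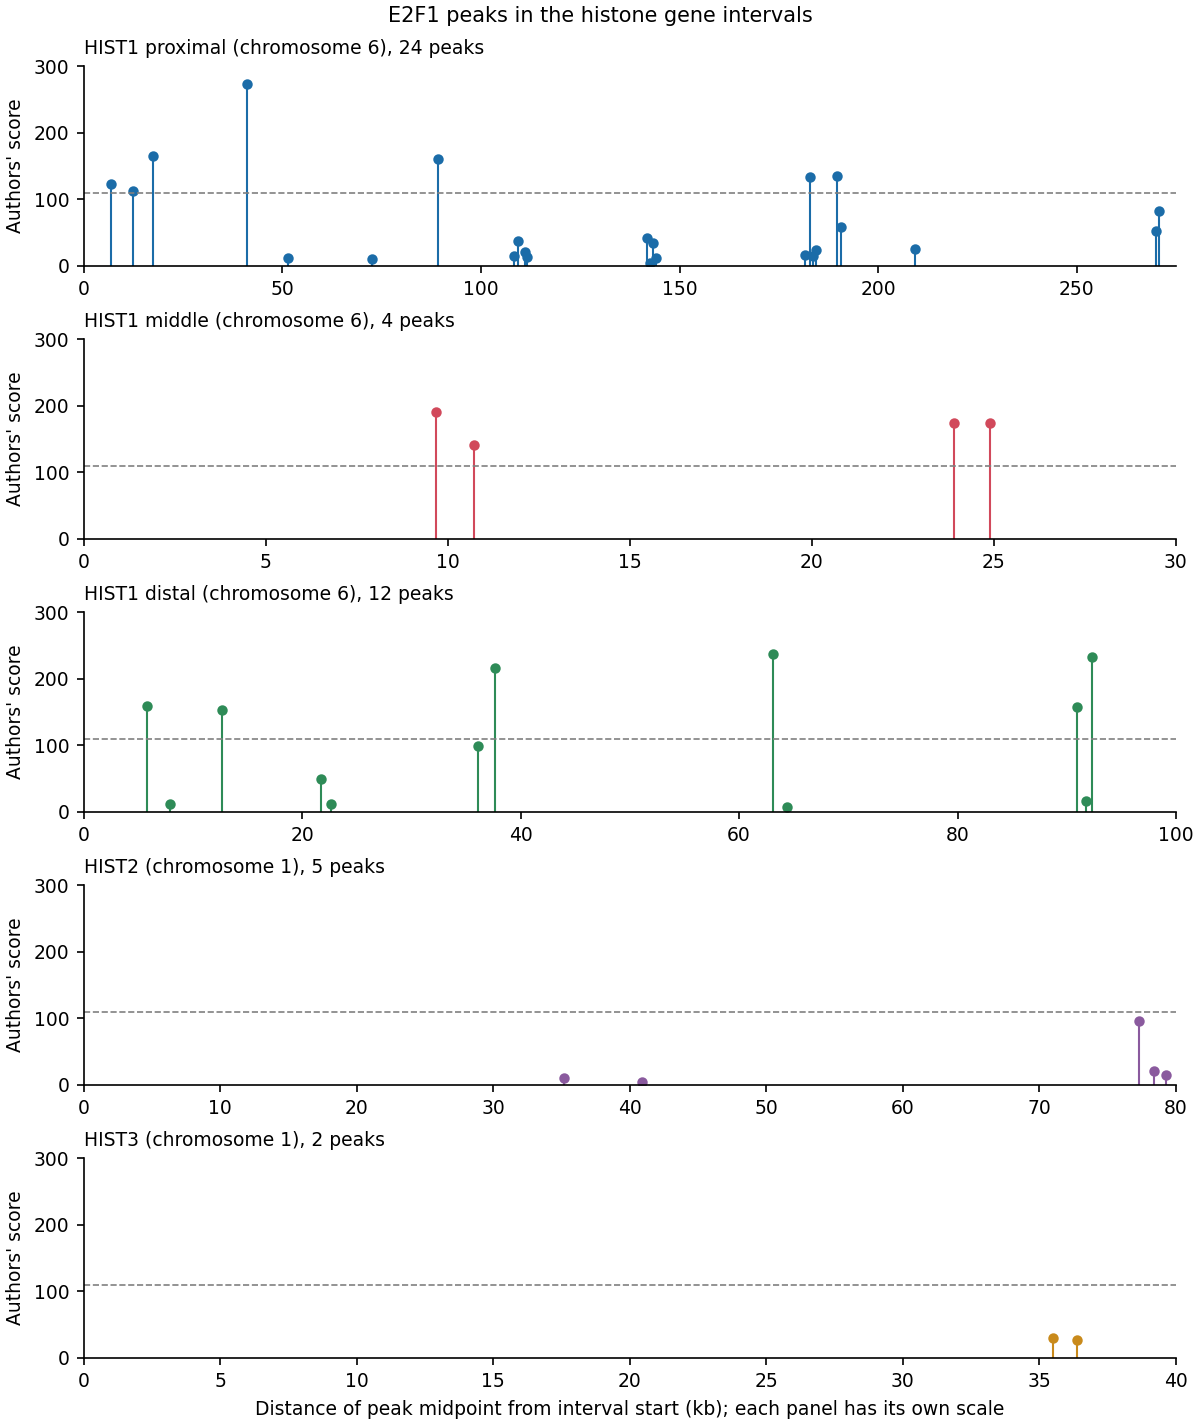
Each stem is an E2F1 peak, placed by the distance of its midpoint from the start of the interval (horizontal axis, kb, a different scale in each panel) with the authors' score as its height. The dashed line is the score of 110 that marks the top 10% of the list. Of the HIST1 peaks, 17 stand above it, and the HIST2 and HIST3 peaks stay below.

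The proximal interval opened with strong single peaks. The earliest, from 26021551 to 26022080, scored 123, and the next, from 26027123 to 26027868 and from 26032075 to 26032693, scored 113 and 164. These 3 were 5042 and 4206 bp apart. The peak from 26055246 to 26056875 had the highest score of all members, 274, and was also the widest at 1630 bp. It was the fifth highest of chromosome 6 by score and the seventh by width, and its nearest neighbour was 9308 bp away. After 2 weak peaks (scores of 11.9 and 10.5) came a peak of 160, from 26103855 to 26104665.

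The middle of the proximal interval held groups of close and mostly weak peaks. A pair from 26123131 to 26124734 scored 14.3 and 37.4, and a pair from 26125972 to 26126640 scored 20.4 and 13.1. A run of 4 peaks from 26156339 to 26159286 scored 42.1, 4.06, 33.5 and 11.4. It held the closest members, 80 bp apart, and the weakest, at 4.06. A second run of 4, from 26196428 to 26199613, scored 15.7, 133, 14.4 and 23.9, so a single strong peak stood among 3 weaker ones. The pair from 26204484 to 26205787 scored 135 and 58.9. The single peak from 26223895 to 26224752 scored 25.3 and was the most isolated member, with 18107 bp to its nearest neighbour. The longest stretch of the interval without a peak, 60.0 kb from 26224753 to 26284761, followed it. The interval closed with a pair at 52.8 and 81.8, from 26284762 to 26286068.

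In the middle interval each of the 4 peaks was in the top 10% of the list. They formed 2 close pairs. The pair from 27099355 to 27101101 scored 190 and 141 with 335 bp between the peaks. The pair from 27113625 to 27115184 scored 174 and 174 with 446 bp between them. The members of a pair were thus of like strength, and 12523 bp without a peak lay between the pairs. The widest was 774 bp and the narrowest 542 bp.

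The distal interval held both strong and weak peaks, with 6 of 12 in the top 10% of the list. Scores ran 159, 12.2, 153, 49.7, 11.5, 99.7, 216, 237, 7.07, 157, 15.9 and 233 along the chromosome. The highest, 237 from 27832770 to 27833427, had the weakest of the interval, 7.07 from 27834265 to 27834464, at a distance of 837 bp. The latter was 200 bp wide, the narrowest member. The run from 27860657 to 27862611 put a peak of 15.9 between peaks of 157 and 233, with 108 bp between the last and the weak one. The widest peak of the interval, 662 bp from 27775448 to 27776109, scored 159. The longest stretch without a peak was 26.2 kb, from 27834465 to 27860656, and the most isolated member, from 27782411 to 27782915, had its nearest neighbour 4386 bp away.

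HIST2 peaks lay in 2 places, and the first 35.0 kb of the 80 kb interval held none. The weak single peaks from 149815012 to 149815368 (score 10.3) and from 149820796 to 149821030 (4.63) were 5427 bp apart. A stretch of 35.8 kb without a peak, from 149821031 to 149856821, separated them from a run of 3 at the far end. That run scored 95.8 from 149856822 to 149857709, 21.5 from 149858112 to 149858681 and 14.9 from 149858968 to 149859552. The closest of them were 286 bp apart and the widest was 888 bp. The median score was 14.9, against 24.8 (quartiles of 10.3 and 64.0) on the rest of chromosome 1 and 41.3 in the flanks of HIST2. HIST2 holds near-identical gene copies. The promoter windows of H4C14 and H4C15 share all 300 bases, those of H2AC18 and H2AC19 share a run of 299 and those of H3C14 and H3C15 a run of 296. Reads from such copies cannot be placed uniquely, and no source used here states how they were treated. Their part in the number and score of HIST2 peaks was not tested. In HIST1, the longest run shared by windows at different positions among the pairs compared was 126 bases, between H4C11 and H4C12.

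HIST3 held 1 pair of like strength, and the first 35.1 kb of the 40 kb interval held no peak. The peak from 228645128 to 228645859 scored 29.3 and the one from 228646205 to 228646564 scored 27.2, with 345 bp between them and widths of 732 and 360 bp. The median of 28.3 lay above that of the rest of chromosome 1 and below the 38.8 of its own flanks. Its ratio to the rest was 1.14, and 0.99 when peaks with a shared score value were left out, so no direction is drawn. Neither HIST2 (0 of 5, exact interval up to 52.2%) nor HIST3 (0 of 2, up to 84.2%) had a peak in the top 10%, which held 10.6% of the peaks on the rest of chromosome 1. With 7 peaks, a difference in this share was not detectable.

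Just outside the intervals scores were lower in places and higher in others. The peak 0.87 kb past the end of the distal interval scored 20.8, while the last one inside, 7.71 kb from that end, scored 233. Past the end of HIST2 the next peak, 11.3 kb away, scored 210, above each HIST2 member, and the last inside, 0.74 kb from the end, scored 14.9. Before the start of HIST3 the nearest outside peak, 15.6 kb away, scored 109, and 1.62 kb past its end a peak scored 5.81. Around the proximal interval the nearest outside peaks, 22.1 and 22.9 kb away, scored 15.6 and 9.0. Around the middle interval they lay 102 and 5.37 kb away and scored 89.0 and 8.99. The nearest peak before HIST2, 15.3 kb from its start, scored 47.5. The nearest before the distal interval, 9.94 kb from its start, scored 12.5.

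Members lay close to each other. Of the 40 HIST1 peaks, 27 (67.5%, 50.9 to 81.4%) had another peak within 1 kb, edge to edge, against 18.2% on the rest of chromosome 6 and 30.1% in the flanks. HIST2 and HIST3 together had 5 of 7, against 18% on the rest of chromosome 1. The median distance to the nearest peak was 461 bp in HIST1 and 17779 bp on the rest of chromosome 6. Counted over all 5 intervals, the 47 members formed 28 groups, where a group is a peak or a chain of peaks within 1 kb of the next. Of the 28 groups, 9 were pairs and 4 had at least 3 peaks, and 46.4% had more than 1 peak. The rest of chromosome 6 had 9.56% such groups and 12 groups of at least 3 peaks among 1454. A dense stretch has close peaks by its density alone, and how much of the spacing follows from it was not tested.

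**Figure D4:**
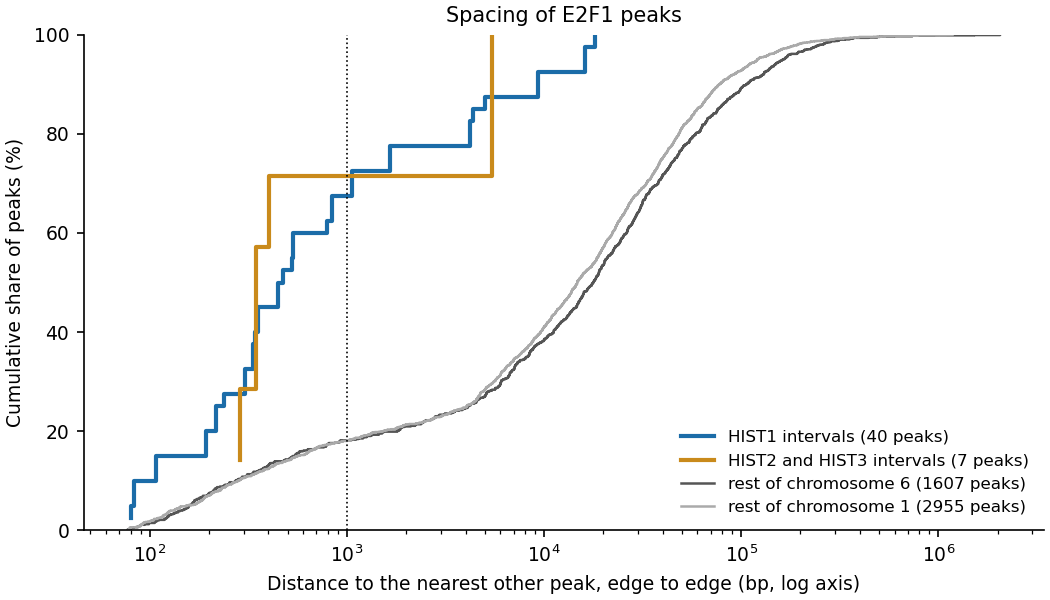
Lines give the cumulative share of peaks (vertical axis, %) by the distance to the nearest other peak (horizontal axis, bp, log scale) for the HIST1 intervals, the HIST2 and HIST3 intervals and the rest of chromosomes 6 and 1. At the dotted line of 1 kb the HIST1 line stands at 67.5% and the rest of chromosome 6 at 18.2%.

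Close neighbours among the members often differed in strength, as did those on the rest of chromosomes 6 and 1. In 19 adjacent pairs within 1 kb, the stronger peak had a median of 2.95 times the score of the weaker, from 1.00 to 33.5 times. The ratio was over 5 in 7 pairs (36.8%) and under 2 in 7 pairs (36.8%). On the rest of chromosome 6 the median over 153 such pairs was 2.56, with 26.8% over 5 and 41.8% under 2. On the rest of chromosome 1 the median over 276 pairs was 3.29, with 32.2% over 5 and 26.4% under 2. The members' pairs are therefore described and not set apart. Of the 17 members in the top 10%, 9 had a neighbour within 1 kb, as did 23 of the other 30 members. The share among top peaks outside the intervals was not obtained. Of the 9, 6 were in a group with another top peak. These 6 were the middle interval's 4 and the peaks of 157 and 233 in the distal one.

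The median HIST1 peak was wider than that of the rest of chromosome 6, but fewer HIST1 peaks were wide for their score. The HIST1 median was 529 bp (quartiles of 373 and 639), against 405 bp (276 and 655) on the rest of chromosome 6, a ratio of 1.31. Width and score go together in this list. Within the top 50% of the list by score, the ratio fell below 1, to 0.90. When each peak was compared with the median width of its own score class, 1 of 10 equal classes of the list, 12 of 40 HIST1 peaks (30%, 16.6 to 46.5%) were wider, against 49.8% on the rest of chromosome 6. By interval it was 10 of 24 in the proximal (41.7%, 22.1 to 63.4%), 1 of 4 in the middle (0.63 to 80.6%) and 1 of 12 in the distal one (0.21 to 38.5%). The proximal and middle ranges include 49.8%. In the flanks, in contrast, 68 of 113 (60.2%) were wider. On chromosome 1, 5 of 7 members were wider, against 47.7% on the rest of the chromosome. The medians were 570 bp in HIST2 and 546 bp in HIST3, against 420 bp. The direction did not hold under each setting, since the HIST2 ratio was 0.76 with peaks within 1 kb merged and the HIST3 ratio 0.85 in the top 50% by score. The 17 top members were between 505 and 1630 bp wide with a median of 625 bp, and the other 30 between 200 and 987 bp with a median of 402 bp. A close neighbour limits how far a peak can extend, and its part in the widths was not tested.

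**Figure D5:**
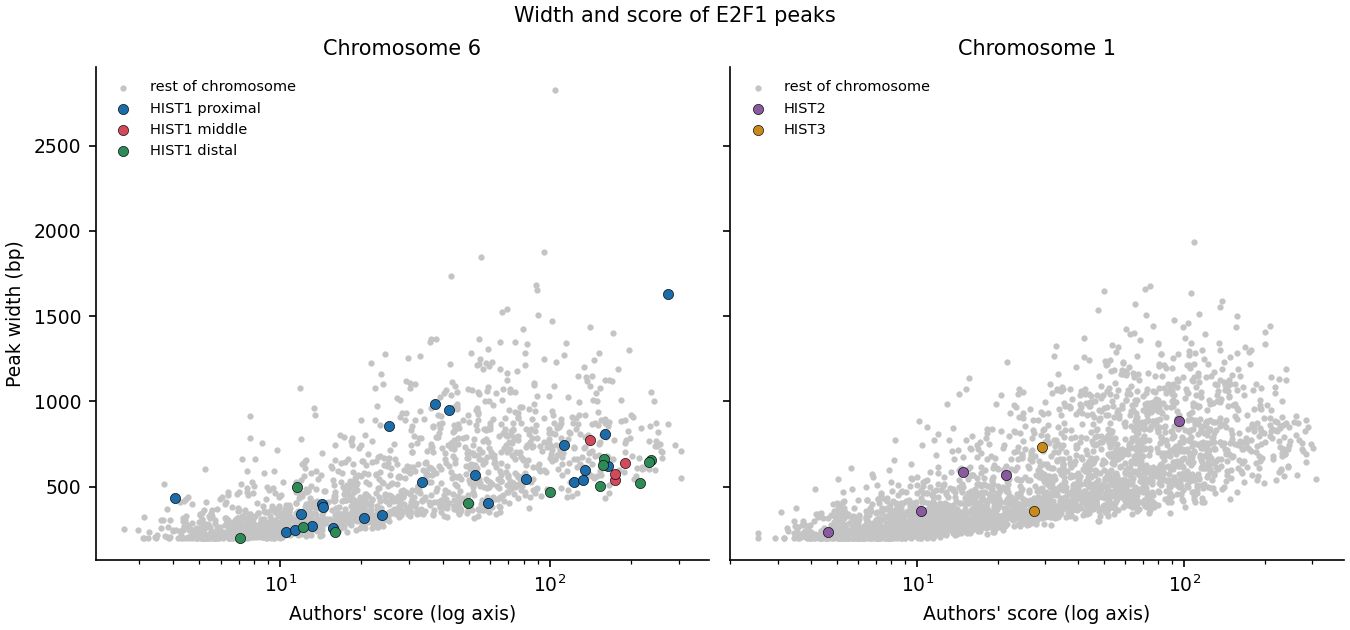
Points are E2F1 peaks by the authors' score (horizontal axis, log scale) and width in bp (vertical axis), members coloured by interval and the rest of the chromosome in grey. Most HIST1 points of high score lie in the lower part of the grey cloud. Among them, the peaks of 1630 and 811 bp (proximal) and 774 bp (middle) were wider than the median of their score class.

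Score values that many peaks share were rare among the members. A value held by at least 25 peaks of the list was found at 0 of 40 HIST1 peaks (exact interval up to 8.81%), against 4.98% on the rest of chromosome 6. On chromosome 1 it was found at 1 of 7 members, the HIST2 peak of 10.3, against 5.65% on the rest. The exact intervals include both of those values, so no difference was detectable with these numbers.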

How the data were processed

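The peak list deposited by the authors gives, per peak, chromosome, start, end, name and a score. It has no header, and no source used here states the scale of the authors' score. The submitters' processing notes name hg19, MACS2 2.0.9, Bowtie and CASAVA 1.6.0. Nothing states the peak threshold or how duplicates, multiply mapping reads and the input were handled. Starts were read as 0-based.

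The members and lists were chosen with earlier results of these data known. Counts, medians, edge-to-edge distances, windows of interval length tiled over the rest of the chromosome (from its first to its last peak, 9 mitochondrial peaks left out) and 1 Mb flanks were obtained with numpy 2.4.6, pandas 2.3.3 and scipy 1.17.1 (Python 3.11.15) and drawn with matplotlib 3.10.9. Functions were tested on simulated data. Poisson and Clopper-Pearson intervals (95%) cover counting error only. With 1 library there was no test between groups. Named peaks were all those on chromosome 1, the 10 highest, and per interval the highest, lowest, widest, closest and most isolated; others were named after their values were seen. Windows starting at each peak, shares among windows that held a peak, and the short sequences around E2F matches were added after seeing the data.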

Additional observations from a re-analysis of the deposited data

How the results depend on the processing

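There were 188 alternatives over the 5 intervals and HIST1 as a whole. Of these, 144 left the value within its 95% interval (for medians of 5 or fewer peaks, their range) and on the same side of their own comparator. A further 31 moved it and 13 changed the side, while window counts have no side. Taking any overlap with an interval gave the same peaks and so the same values. For near neighbours, the flanks and all nuclear peaks changed only the comparator. These alternatives could not move the value, so the tally overstates how stable the values are. For HIST1, the density ratio of 10.5 was 15.7 in the top 50% of peaks, 50.3 in the top 10%, 6.94 with peaks within 1 kb merged and 3.02 over the flanks. The share of its peaks in the top 10% was 63.0% within the top 50%, against 19.6% on the rest of chromosome 6. Its median width over the rest was 0.90 in the top 50% and 1.89 with peaks merged. The share with a near neighbour was 85.0% at 5 kb, 44.4% in the top 50% and 50% between midpoints. On the rest of chromosome 6 these shares were 27.0%, 9.25% and 14.5%. In the top 50%, HIST2 kept 1 peak, with a median score ratio of 1.53 and 0% with a near neighbour (7.04% on the rest of chromosome 1). Merging gave HIST2 a width ratio of 0.76. For HIST3, the score ratio of 1.14 was 0.45 in the top 50%, 0.99 without shared values, 0.73 over the flanks, 1.10 with intervals extended by 10 kb and 1.2 over all nuclear peaks. Its width ratio was 0.85 in the top 50%, 0.86 with extended intervals and 3.08 with merging. By interval, the width ratio in the top 50% was 0.90 (proximal), 0.91 (middle) and 0.87 (distal), and 0% of the middle peaks had a neighbour within 1 kb between midpoints. Fewer peaks follow from the construction of the top sets and of merging. By construction too, the top 10% share rises within the top 50%. The near-neighbour share likewise must not fall at 5 kb and must not rise between midpoints. A merged site is measured from its first to its last base, gaps included, so it is wider than each peak in it. Distances in the top 50% were taken among the peaks left, so no peak there can gain a near neighbour. How far these rules set the ratios and shares, and the cause of the other changes, was not tested. HIST2 and HIST3 had no peak in the top 10%, so that alternative gave no density. Windows that start at a peak, added after seeing the data, reached the middle interval's count in 5.30% of starts, that of HIST2 in 15.2% and that of HIST3 in 54.3%. No paired analysis was possible because every value comes from a single peak list. What depth limits is unknown, since the list gives no read counts.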
